A study of Homo sapiens with 2 samples.

Results

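The clustered protocadherin genes are 53 protein-coding genes on chromosome 5, arranged one after another as an alpha cluster (15 PCDHA genes), a beta cluster (16 PCDHB genes) and a gamma cluster (22 PCDHGA, PCDHGB and PCDHGC genes). They were chosen by symbol from 57894 annotated genes, of which 31523 had a read in at least 1 library. The rule used no measured value, but earlier results of these data were known when it was set. The members carry 127 annotated transcripts. The RNA came from HEK293, an established line derived from human embryonic kidney, either as parental cells with no labelled modification or as a LARP7 knockout, clone 1-11, with 2 total RNA libraries in each group. LARP7 binds and stabilises the small nuclear RNA 7SK, which holds a transcription elongation factor inactive, and the series asks how its loss alters expression and splicing. Both knockout libraries came from 1 clone, so the knockout and any other property of that clone cannot be told apart. One label field of the knockout calls it wildtype, and the genotype field was followed. Nothing states that the libraries of a group were separate cultures, so the p-values rest on a spread that may be technical only.

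LARP7 itself was at 59.8 and 46.5 CPM (reads scaled to a common library size) in the parental libraries, against 36.1 and 31.9 CPM in those labelled knockout. The groups did not overlap, but the difference missed the threshold (log2 fold change -0.65, SE 0.16, adjusted p = 0.135). Over the transcripts annotated as protein-coding alone it passed (log2 fold change -1.44, adjusted p = 0.0226). Each library held between 12851942 and 18483220 estimated reads, parental replicate 2 being the shallowest, and the fragment length implied by the tables was longer in the knockout libraries (232.9 and 225.8 bases) than in the parental ones (217.0 and 206.7 bases). The kidney lineage genes PAX2, LHX1 and EYA1 were all detected, at a summed 2.51 and 2.11 TPM (reads per transcript length, scaled to a common total) in parental cells against 4.77 and 6.55 TPM in the knockout. All 5 neuronal markers examined had reads somewhere, with summed levels of 5.18 and 5.84 TPM in parental cells against 9.98 and 8.60 TPM in the knockout, and of these SNAP25 and DCX were at 0 in both parental libraries. RBFOX3 made up most of the TPM difference (1.26 and 2.52 against 5.71 and 4.18 TPM), while its CPM overlapped (3.07 and 5.00 against 4.79 and 5.27, adjusted p = 0.722), as did that of SYP (adjusted p = 0.997). In an edgeR fit without a filter on low counts 4 of the 5 were above 0 and STMN2 was below (log2 fold change -0.415). That fit called SNAP25 higher (log2 fold change 6.52, adjusted p = 0.0349), as it did 1.18% of all genes. Of 4 fibroblast markers COL1A2 was at 0 in all 4 libraries, and the summed level was between 1.25 and 2.17 TPM. The part of other cell types in the results below was not tested, and in bulk RNA fewer cells with a transcript and less of it per cell cannot be told apart.

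Clustered protocadherins are cell surface adhesion proteins of the cadherin superfamily, known best from neurons, where each cell expresses its own small combination and so acquires a surface identity that its own branches recognise. Every gene has its own promoter and a large first exon that encodes the extracellular, membrane and first cytoplasmic part of the protein. In the alpha and gamma clusters this variable exon is spliced to constant exons shared by the whole cluster, while beta genes have no constant exons. Choice among the promoters is known to involve the factor CTCF and the cohesin complex, which loop a promoter to a distant enhancer, and methylation of promoter DNA, which silences it. The C-type members (PCDHAC1, PCDHAC2, PCDHGC3, PCDHGC4 and PCDHGC5), at the 3′ ends of their clusters, are regulated apart from the others.

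The promoter windows show what nearly all the matched beta genes have in common. RefSeq promoters (300 bases, from 250 before to 50 after the start, build GRCh38.p14) were matched for 47 of the 53 members and not for PCDHA3, PCDHA13, PCDHB6, PCDHB11, PCDHGA12 and PCDHGC5. The letters CGCT, the core of the conserved sequence element of these promoters, were present on either strand in 46 of the 47 (97.9%), against 69.4% of 27305 promoters of all genes. The 8-letter word held by the most member promoters was GTGGCGCT, which contains CGCT and shared its count of 13 with words that overlap it. All 13 copies lay in beta promoters, 13 of the 14 matched, on the gene's own strand. PCDHB1 was the matched beta promoter without the word. On either strand 1.18% of all promoters held it. The word was picked for being frequent in member promoters, so a higher share among members was built into the choice. In the beta promoters it began between 83 and 1 bases before the annotated start, with a median of 65. The 60-base windows that follow, all on the plus strand and 5′ to 3′, are those of PCDHB2 and PCDHB14, which had the largest fold changes among the members tested, and of PCDHB12 and PCDHB13, which lie beside PCDHB14 and did not. The capitals mark the word.
PCDHB2 (chr5:141094530-141094589): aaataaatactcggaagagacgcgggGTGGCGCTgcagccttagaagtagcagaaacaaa
PCDHB14 (chr5:141223249-141223308): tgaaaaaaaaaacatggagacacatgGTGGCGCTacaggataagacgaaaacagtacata
PCDHB12 (chr5:141208629-141208688): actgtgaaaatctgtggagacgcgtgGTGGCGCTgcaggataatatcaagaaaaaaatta
PCDHB13 (chr5:141213851-141213910): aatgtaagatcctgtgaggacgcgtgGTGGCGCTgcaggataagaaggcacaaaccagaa
A match is a description of these letters. CGCT alone does not establish the longer conserved element, and a match says nothing of binding. Member promoters held a median of 7 CG pairs and 39.7% G and C, against 14 and 58.3% over all promoters. The matched C-type promoters lay above the median of all promoters, with 27 CG pairs at PCDHAC1, 15 at PCDHAC2, 18 at PCDHGC3 and 23 at PCDHGC4.

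The constant exons decide how far a read can be given to 1 gene. In the alpha cluster all 15 genes share exons of 59, 89 and 2718 bases, and in the gamma cluster all 22 share exons of 59, 89 and 2033 bases. The first constant exon of each cluster is shown, because a read inside it names the cluster and not the member.
Alpha (chr5:140978949-140979007, plus strand): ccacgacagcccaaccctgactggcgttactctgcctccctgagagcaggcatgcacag
Gamma (chr5:141494807-141494865, plus strand): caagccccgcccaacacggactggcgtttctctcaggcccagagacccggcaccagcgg
These exons have 39 of 59 bases in common at the same position, and the second constant exons 29 of 89. Constant bases make up a median of 54.5% of the alpha transcripts that reach them (27.0% to 86.2%, 24 transcripts) and 47.4% of the gamma ones (14.2% to 92.9%, 29 transcripts), coordinates being those of GRCh38. The variable exons overlap in sequence too. For the longest transcript of each member without constant exons, the share of 31-base words also found, on either strand, in a transcript of another gene had a median of 26.2% in the alpha cluster, 25.1% in the beta cluster and 11.2% in the gamma cluster. It was 38.2% for PCDHB2, 19.5% for PCDHB14 and 3.66% for PCDHGA11, and 0 for PCDHAC2, PCDHGC3, PCDHGC4 and PCDHGC5. It was highest for PCDHGB4 (61.5%, mostly shared with PCDHGA8) and PCDHB8 (58.4%, mostly with PCDHB13). Values of single members therefore carry an assignment error that the tests do not include.

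HEK293 cells held few reads of these genes in either group. All 53 members together received 297.6 and 241.1 estimated reads in parental cells against 492.0 and 465.8 in the knockout. At least 1 read was assigned to 34 and 26 members in parental cells and to 40 and 38 in the knockout. PCDHA2, PCDHA6, PCDHA8, PCDHAC2, PCDHB1, PCDHB6 and PCDHGA3 were at 0 in all 4 libraries. A count of 0 allows up to 3 reads, which is between 0.171 and 0.238 CPM in these libraries, counting error only. A gene was taken as on in a library at a TPM of at least 1 with at least 10 reads. No member was on in both parental libraries and 1 member, PCDHGA11, was on in both knockout libraries, so none was on in all 4. Among 19815 protein-coding genes 55.7% were on in both parental libraries, 58.5% in both knockout libraries and 55.1% in all 4. The only other member that was on in any library was PCDHGC3, in parental replicate 1. With a threshold of 0.5 TPM, 2 members were on in parental cells and 4 in the knockout. By reads alone, a rule chosen after seeing the data, 2 members had at least 10 reads in both parental libraries and 8 in both knockout libraries.

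**Figure D1:**
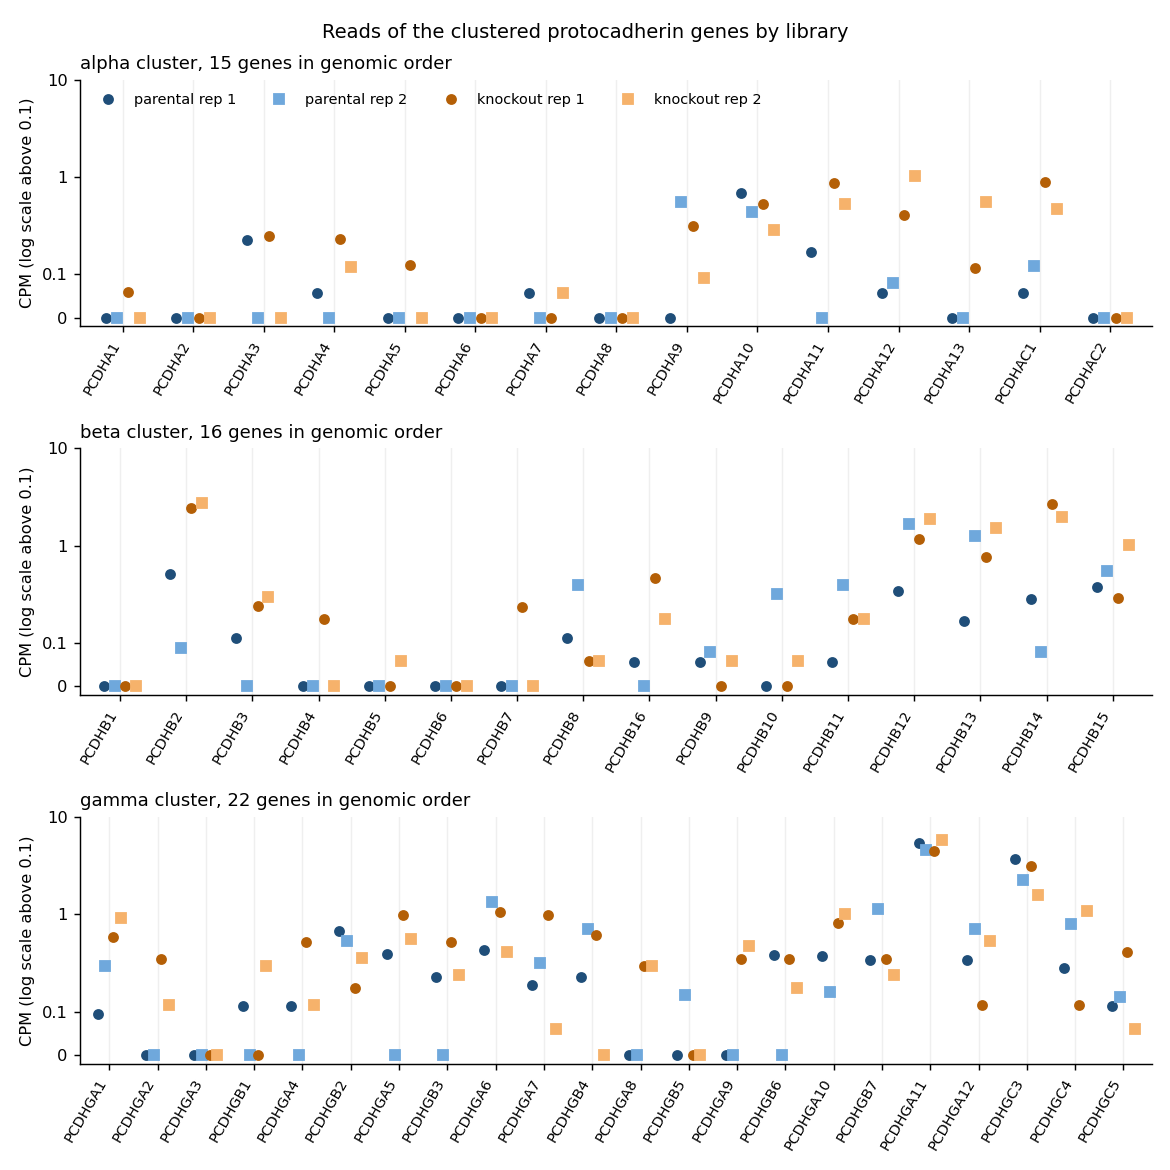
Each point is 1 member in 1 library, in CPM on an axis that is logarithmic above 0.1, with members in genomic order and the clusters in separate panels (parental in blue, knockout in orange, circles for replicate 1, squares for replicate 2). The orange points of PCDHB2 and PCDHB14 lie above the blue ones, while those of PCDHGA11 and PCDHGC3 intermix.

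The gamma members PCDHGC3 and PCDHGA11 had the highest TPM of all members in both parental libraries, and their read counts overlapped between the groups. PCDHGA11, a non-C-type gamma gene, received 96.2 and 57.2 reads in parental cells against 76.2 and 99.5 in the knockout. That is 5.00 ± 0.65 and 5.17 ± 1.02 CPM (SD, n = 2 per group), and the groups overlapped (log2 fold change 0.05, SE 0.31, adjusted p = 0.966). Its TPM was 0.96 and 0.63 in parental cells against 1.23 and 1.28 in the knockout. The groups were thus separate in TPM and not in CPM, and the on call in the knockout rests on TPM, which also moves with the transcript form to which reads were given. PCDHGC3, a C-type member whose variable exon shares no 31-base word with another gene, received 66.0 and 28.3 reads in parental cells against 54.4 and 27.0 in the knockout (log2 fold change -0.34, SE 0.48, adjusted p = 0.80). Its TPM of 2.05 in parental replicate 1 lay above the 0.85, 0.85 and 0.69 of the other libraries. A short processed transcript of 937 bases made up 1.34 of that value. PCDHGA11 and PCDHGC3 together held 54.5% and 35.5% of all member reads in parental cells against 26.6% and 27.2% in the knockout.

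The remaining C-type members were low or undetected. PCDHGC4 received 5 and 10 reads in parental cells against 2 and 18.53 in the knockout, and its difference changed sign among the alternatives (log2 fold change 0.24, SE 1.03, adjusted p = 0.946). PCDHGC5 had between 1 and 7 reads in every library. PCDHAC1 received 1 and 1.55 reads in parental cells against 15.4 and 8 in the knockout, so that the groups did not overlap. PCDHAC2 had none in any library.

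The other gamma members stayed under 20 reads in every library. PCDHGA10 received 6.60 and 2 reads in parental cells against 14 and 17.0 in the knockout (log2 fold change 1.63, SE 0.76, adjusted p = 0.381). PCDHGA6 received 7.53 and 17 reads in parental cells against 18 and 7 in the knockout (log2 fold change -0.26, SE 0.79, adjusted p = 0.921). PCDHGA2, PCDHGA8 and PCDHGA9 had no read in parental cells, where the knockout had 6 and 2, 5.07 and 5.02, and 6 and 8. PCDHGB2 went the other way, with 12 and 6.77 reads in parental cells against 3 and 6 in the knockout. None of these 4 passed the filter on low counts, so none was tested. PCDHGA8 shares 2266 exon bases on the same strand with PCDHGB4. That gene received 4 and 9 reads in parental cells against 10.5 and 0 in the knockout. Reads in the shared bases may belong to either gene, so the contrast at PCDHGA8 may rest on read assignment.

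In the beta cluster PCDHB2 and PCDHB14 were higher in both knockout libraries. PCDHB14, near the 3′ end of the cluster, received 5 and 1 reads in parental cells against 46 and 33 in the knockout, that is 0.18 ± 0.14 and 2.32 ± 0.52 CPM (SD, n = 2 per group). PCDHB2, near the 5′ end, received 9 and 1.10 reads in parental cells against 41.9 and 46 in the knockout, or 0.30 ± 0.30 and 2.58 ± 0.20 CPM. At each gene both knockout libraries lay above both parental libraries. The log2 fold change was 3.53 (SE 0.71) for PCDHB14 and 2.996 (SE 0.71) for PCDHB2, and with the Benjamini-Hochberg adjustment over all 18484 genes tested neither passed in edgeR's quasi-likelihood test (adjusted p = 0.0689 and 0.121). On leaving out 1 library the log2 fold change ranged from 2.99 to 4.73 for PCDHB14 and from 2.32 to 4.89 for PCDHB2, both highest without parental replicate 1. Neither gene passed with limma voom (adjusted p = 0.121 for PCDHB14 and 0.133 for PCDHB2) or with edgeR and an effective-length offset (0.163 and 0.217). The same held for edgeR over protein-coding transcripts alone (adjusted p = 0.101 and 0.145) and with the other scalings. DESeq2 called both (adjusted p = 0.0247 and 0.0476), as did edgeR without the filter on low counts (0.000176 and 0.000462). Both genes entered the test only through the knockout libraries, since the filter asks for about 10 reads in 2 libraries, so a difference was built into their selection.

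DESeq2 and the unfiltered fit called more genes throughout. In the edgeR test 0 of the 9 members tested were called in either direction, against 0.33% of all genes called higher and 0.503% called lower. PCDHB2 and PCDHB14 were below 0.05 unadjusted, both higher, where 6.58% of all genes tested were higher at that level. These 2 members passed the filter through the knockout libraries alone, so their number against that share is no measure of an excess. DESeq2 called 1.03% of genes higher and the unfiltered fit 1.18%. Leaving out 1 library moved the calls further. Without parental replicate 1 both PCDHB genes were called (adjusted p = 0.00426 for PCDHB2 and 0.00747 for PCDHB14), and without parental replicate 2 likewise (0.0177 and 0.00791), while 5.71% and 4.33% of all genes were then called higher. Without knockout replicate 2 only PCDHB14 was called (adjusted p = 0.0442, background 0.333%). Without knockout replicate 1 neither was called (background 0.403%), and the lone library left in a group was assumed to vary like the other group.

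The other beta members overlapped between the groups or were nearly absent. PCDHB12 received 6 and 21 reads in parental cells against 20 and 32 in the knockout (log2 fold change 0.65, SE 0.75, adjusted p = 0.746). PCDHB13 received 3 and 16 in parental cells against 13 and 26 in the knockout (log2 fold change 0.73, SE 0.89, adjusted p = 0.762). At both genes parental replicate 2 lay between the knockout libraries in CPM, and parental replicate 1 was lowest. PCDHB15, behind PCDHB14 and PCDHB2 by mean TPM, received 6.57 and 7 reads in parental cells against 5 and 17 in the knockout. PCDHB15 and PCDHB14 overlap the exons of a gene on the same strand, AC244517.10, by 379 and 169 bases, and that gene had 3.43 reads in parental replicate 1 and none elsewhere. PCDHB2 overlaps an antisense RNA, AC244517.5, by 620 bases. Of 13 antisense RNAs annotated between the members 12 were at 0 in all libraries, and without knowledge of the strand setting reads of the pairs cannot be told apart.

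Among alpha members the reads of the knockout lay mainly in a run of neighbours at the 3′ end. PCDHA11 received 3 and 0 reads in parental cells against 15 and 9 in the knockout. PCDHA12 received 1 and 1 in parental cells against 6.90 and 17.2 in the knockout. PCDHA13 had none in parental cells against 2 and 9.26 in the knockout. With PCDHAC1, the next gene along, these 4 held 5 and 2.54 reads in parental cells against 39.3 and 43.5 in the knockout, and the other 11 alpha genes 18 and 12.5 reads against 25.7 and 9.34. The 4 were grouped after their values were seen and get no test. Part of their reads was assigned to forms that reach the constant exons. In knockout replicate 2 these forms took all 9.26 reads of PCDHA13 and 8.01 of the 17.2 of PCDHA12. In knockout replicate 1 they took 5.48 of the 6.90 of PCDHA12 and 4.59 of the 15.4 of PCDHAC1. Those of PCDHA11 lay almost wholly on a form without constant exons. Reads inside constant exons name the cluster and not the member. PCDHA10, with a large single-exon transcript that contains the pseudogene PCDHA14, received 12 and 5.46 reads in parental cells against 9 and 4.82 in the knockout. No alpha gene passed the filter, so none was tested in the main comparison.

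Over all members with a read, more stood higher than lower in the knockout. Of these 46, 17 had both knockout libraries above both parental ones (37.0%: 5 alpha, 4 beta and 8 gamma), 2 had both below (4.35%: PCDHB8 and PCDHGB2) and 27 overlapped. Among all genes with a read 19.1% were higher and 17.8% lower by the same rule. Among the 4924 other protein-coding genes with a read and a mean TPM below 1 the shares were 21.1% and 11.3%. The 17 include PCDHGA8, whose place may rest on read assignment, since it shares exon bases with PCDHGB4. Only 9 members passed the filter, 3 of them (PCDHB2, PCDHB14 and PCDHGA10) through the knockout libraries alone, so the median log2 fold change of 0.66 over those 9, against 0.002 over all genes tested, is a description of a selected group.

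Summed by cluster, the log2 ratio of knockout to parental cells was larger for alpha and beta than for gamma. A few members carried much of the alpha and beta differences. In gamma the members with the most reads, PCDHGA11 and PCDHGC3, overlapped between the groups. Alpha summed to 1.31 and 1.19 CPM in parental cells against 3.79 and 3.13 in the knockout, a log2 ratio of the group means of 1.47. Beta summed to 2.08 and 4.85 CPM in parental cells against 8.70 and 10.0 in the knockout, a log2 ratio of 1.43. Gamma summed to 13.5 and 13.1 CPM in parental cells against 16.2 and 14.4 in the knockout, a log2 ratio of 0.20. In each cluster both knockout libraries lay above both parental ones, and an exact permutation test of 2 against 2 libraries cannot give a 2-sided p below 0.333. The 8044 other protein-coding genes with a mean TPM below 1 gave a log2 ratio of 0.16 when summed in the same way, with 3116 and 3790 CPM in parental cells against 3712 and 4009 in the knockout. The beta value depended on a parental library: it was 2.17 without parental replicate 2 and 0.95 without parental replicate 1. Without PCDHB2 and PCDHB14 the other 14 beta genes summed to 1.28 and 4.68 CPM in parental cells against 3.57 and 5.32 in the knockout, and those groups overlapped (ratio of means 1.49). Without PCDHGA11 and PCDHGC3 the other 20 gamma genes summed to 4.31 and 6.31 CPM in parental cells against 8.60 and 6.95 in the knockout, which did not overlap (ratio 1.47). Without PCDHA11, PCDHA12, PCDHA13 and PCDHAC1 the other 11 alpha genes gave a ratio of 1.02. These members were set aside after their values were seen. Across all 53 genes the sums were 16.9 and 19.1 CPM in parental cells against 28.7 and 27.6 in the knockout.

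**Figure D2:**
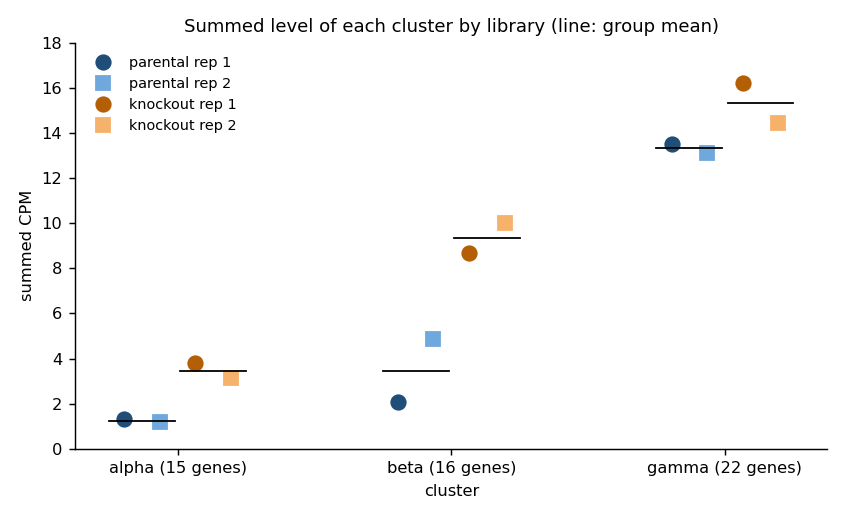
Points give the CPM of all genes of a cluster summed in 1 library (parental in blue, knockout in orange), and the black lines the mean of the 2 libraries of a group. The gamma sums lie between 13.1 and 16.2 CPM in all 4 libraries, while the alpha and beta means differ 2.77-fold and 2.70-fold.

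Most alpha and gamma reads were assigned to transcripts that hold no constant exon, the greater part single-exon forms and some spliced. In the gamma cluster these took 153.0 and 92.5 reads in parental cells against 177.3 and 171.8 in the knockout, and the transcripts that reach the constant exons took 85.0 and 72.5 against 100.7 and 72.2. In the alpha cluster the forms without constant exons took 23 and 9.37 reads in parental cells against 42.2 and 34.6 in the knockout. Alpha forms that reach the constant exons took 0 and 5.64 reads in parental cells against 22.8 and 18.2 in the knockout, so the groups did not overlap. By the constant-reaching forms alone the log2 ratio was 2.43 for the alpha cluster and -0.06 for the gamma cluster, which reverses the sign of the gamma value. The split within a gene was unstable between libraries. For PCDHGA11 the full-length form of 4647 bases took 65.6 and 40.1 reads in parental cells but 0 and 45.4 in the knockout, and in knockout replicate 1 a shorter form of 2263 bases took 11.7. For PCDHGC3 the full-length form took 48.9 reads in knockout replicate 1 and under 1 in each other library. PCDHB14 reads of the knockout were divided between 2 forms, 31.7 and 18.9 reads for a single-exon form and 14.3 and 14.1 for a spliced one.

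**Figure D3:**
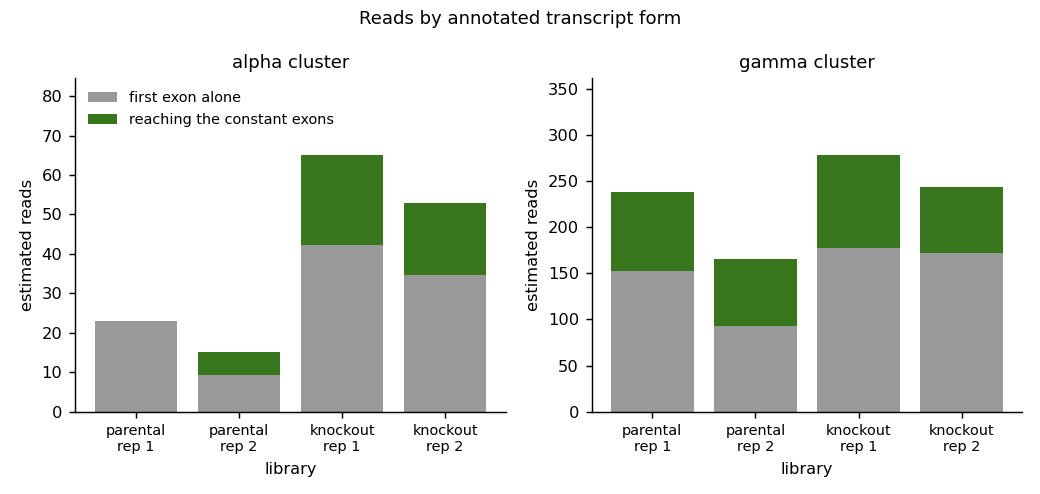
Stacked bars give the estimated reads of each library assigned to alpha and gamma transcripts without constant exons (grey) and to those that reach the constant exons (green). The key names the grey class as first exon alone, though it includes some spliced forms. Parental replicate 1 has no alpha read in the second class, and the green part of the gamma bars is similar in all libraries.

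Genes known to control or read the clusters showed no called difference. The list held CTCF, the cohesin subunits and their loaders and release factors, the repressor SMCHD1, DNA methyltransferases and readers or writers of silent chromatin. Of 23 genes 22 were tested (CTCFL, a germline relative of CTCF with 1 and 3 reads against 7 and 0, was not) and 0 called in either direction by edgeR (0 also by DESeq2, limma voom and without the filter), with 3 below 0.05 unadjusted, where 14.3% of all genes tested were, and a median log2 fold change of -0.09. CTCF, which binds the promoters, was at 111.8 and 86.3 CPM in parental cells against 128.7 and 105.8 in the knockout (log2 fold change 0.24, SE 0.16, adjusted p = 0.558). RAD21, a cohesin subunit, was at 415.6 and 434.5 CPM in parental cells against 376.0 and 362.9 in the knockout (log2 fold change -0.20, SE 0.11, adjusted p = 0.447). SMCHD1, a chromatin protein known to repress protocadherin clusters, was at 132.3 and 126.6 CPM in parental cells against 97.6 and 95.7 in the knockout. Its groups did not overlap in CPM, the lowest fold change of the list (log2 fold change -0.42, SE 0.12, adjusted p = 0.167). In TPM they did overlap, at 31.2 and 22.4 against 34.9 and 28.0. SMCHD1 was called without parental replicate 1 (log2 fold change -0.39) and without parental replicate 2 (-0.46). Leaving out parental replicate 1 also called CTCF (log2 fold change 0.44) and UHRF1 (0.43) higher, and leaving out parental replicate 2 called TRIM28 lower (-0.38). As at PCDHB2 and PCDHB14, both of these fits called far more of all genes than the main fit.

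**Figure D4:**
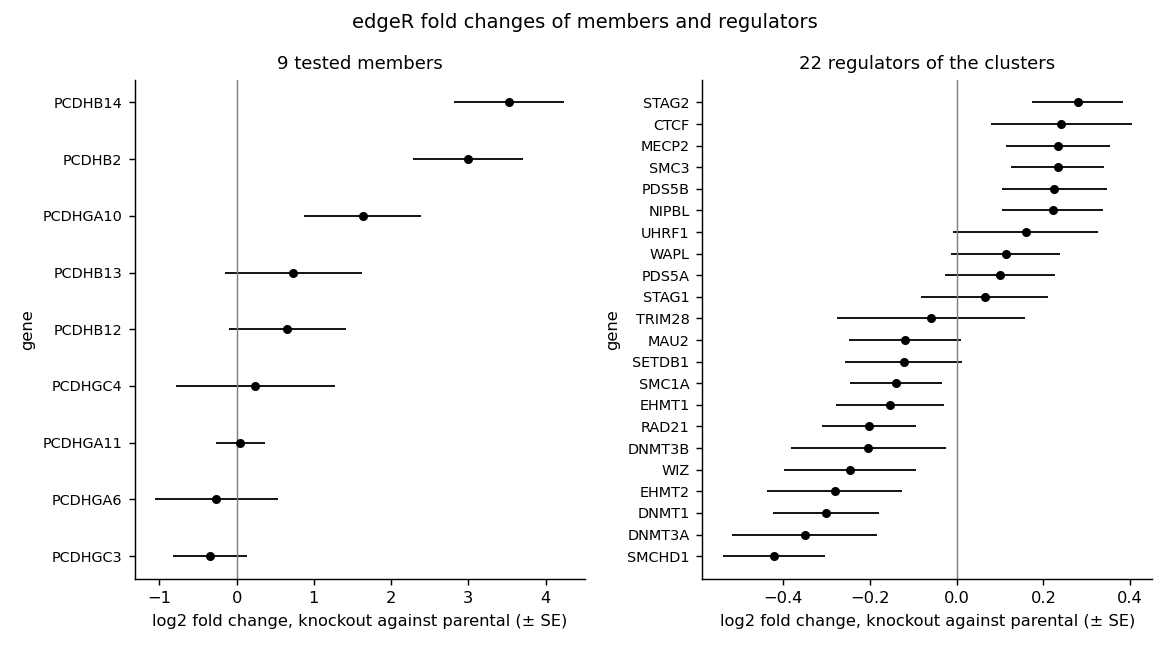
Points are log2 fold changes of the knockout against parental cells from edgeR, with bars of 1 SE, for the 9 members tested (left) and the 22 tested regulators (right), on axes of different width. PCDHB14 and PCDHB2 lie at 3.53 and 2.996, while the regulators lie between -0.42 and 0.28.

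Genes around the clusters showed no called difference. Of 82 genes within 500 kb of, or between, the members 29 were tested and 0 called in either direction, with 3 below 0.05 unadjusted (14.3% of all genes tested) and a median log2 fold change of -0.01. DESeq2, limma voom and the unfiltered fit also called 0. TAF7, a general transcription factor gene between the beta and gamma clusters, was at 91.2 and 86.0 CPM in parental cells against 105.2 and 89.2 in the knockout (adjusted p = 0.704). DIAPH1, an actin regulator downstream of the gamma cluster, was at 169.7 and 126.1 against 163.7 and 153.3 CPM (adjusted p = 0.827). HDAC3, a histone deacetylase gene beside it, was at 60.7 and 46.4 against 44.0 and 47.3 CPM (adjusted p = 0.56). Leaving out parental replicate 1 called RNF14 (log2 fold change 0.45) and the readthrough gene ANKHD1-EIF4EBP3 (0.546) higher. Leaving out parental replicate 2 called WDR55 (log2 fold change -0.56), HDAC3 (-0.415) and SLC35A4 (-0.53) lower. Both of these fits called far more of all genes than the main fit. The 6 protocadherin pseudogenes between the members held 20 and 20 reads in parental cells against 48 and 39.2 in the knockout.

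Protocadherins outside the clusters, which have their own loci and share no exons, ranged from PCDH8 and PCDH11X, with 0 to 4 reads per library, to PCDH9, with 3782 to 5660. Of 11 examined 9 were tested, 2 were called higher and 0 lower (0.33% and 0.503% of all genes), and the median log2 fold change was 0.49. PCDH10 rose from 7.73 and 8.34 CPM in parental cells to 25.3 and 26.6 in the knockout (log2 fold change 1.69, SE 0.19, adjusted p = 0.00615). PCDH7 rose from 75.1 and 62.3 CPM to 133.1 and 120.9 (log2 fold change 0.89, SE 0.14, adjusted p = 0.0301). PCDH10 was called in each alternative run, and PCDH7 in all but the fits with an effective-length offset and without knockout replicate 1. PCDH9 went the other way, at 321.6 and 429.2 CPM in parental cells against 220.7 and 267.0 in the knockout (log2 fold change -0.62, SE 0.16, adjusted p = 0.144). DESeq2, which called 1.42% of all genes lower, called it (adjusted p = 0.0141). So did edgeR without the filter (adjusted p = 0.000892), which called 1.46% lower. PCDH9 was also called without parental replicate 1 (log2 fold change -0.82) and without parental replicate 2 (-0.40). Both of these leave-out fits called far more of all genes than the main fit. In TPM the groups of PCDH9 overlapped, at 12.3 and 9.86 against 11.7 and 11.0. PCDH17, not called in the main fit, was called higher without parental replicate 1 (log2 fold change 1.27).

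Of 16 partners of clustered protocadherins, among them the kinases PTK2 and FYN, the WAVE complex genes and the protease ADAM10, all were tested and 0 called (4 below 0.05 unadjusted, against 14.3% of all genes tested, 0 called by DESeq2, median log2 fold change 0.04). Leaving out parental replicate 1 called PTK2, CYFIP2, FYN and ABI2 lower (log2 fold changes between -0.54 and -0.36). Leaving out parental replicate 2 called PTK2, CYFIP2 and WASF1 lower (between -0.48 and -0.415) and ABI1 higher (0.44). Both of these fits called far more of all genes than the main fit.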

How the data were processed

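Members and gene lists were chosen with earlier results of these data known. Per the file headers, the deposited tables give for each transcript the authors' estimated counts from Salmon, the authors' TPM, and an effective length (other unit, deposited by the authors), used here only for an offset and for fragment length. Per the submitters' processing notes, tools included cutadapt 1.6, STAR 2.5.3a, Salmon 1.6 and edgeR 3.24.3 with build hg38. Not given in the sources used here: what each tool did, the annotation's version, and whether counting was stranded.

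Of 198002 transcripts 197318 were matched to GENCODE release 29 and summed per gene. Counts were rounded and tested with edgeR 4.0.16 (R 4.3.3; filterByExpr with a minimum count of 10, TMM, quasi-likelihood F test, Benjamini-Hochberg over all genes tested, call at 0.05). The test was checked on simulated data. Alternatives were DESeq2 1.42.0, limma 3.58.1 (voom), other scalings, filters, transcript sets and thresholds, a replicate block, and leaving out each library. CPM uses TMM-scaled library sizes. Replicate libraries differed beyond sampling noise (chi-square per degree of freedom 30.7 in parental cells and 8.74 in the knockout). Each library was counted as 1, although this spread may be technical only.

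Genes named are members past the threshold, the 3 highest per cluster by mean TPM, the C-type members, members on in 1 group alone, the tested members of largest change per cluster, CTCF, RAD21, SMCHD1, TAF7, DIAPH1, HDAC3, listed genes past the threshold, and LARP7. Others, such as the alpha run, were named after their values were seen.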

Additional observations from a re-analysis of the deposited data

How the results depend on the processing

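Depth limits single members, most of which had under 20 reads per library. The count of members called higher, 0 in the main test, was 2 without the filter, with DESeq2 and with the replicate block, and 0 to 2 on leaving out a library; no alternative called a member lower. The replicate numbers are shared labels only (the deviations of same-numbered libraries had a correlation of 0.19, from 2 numbers). With the replicate block 4.15% of all genes were called higher and 4.80% lower, and the regulators gained 1 lower call (SMCHD1) and the neighbours 1 higher (RNF14) and 1 lower (WDR55). Leaving out a library gave 0 to 2 regulators in each direction, 0 to 2 neighbours higher and 0 to 3 lower. For members on, in parental cells, in the knockout and in both, a TPM threshold of 0.5 gave 2, 4 and 2, and a threshold of 2 gave 0 in the knockout. Reads alone, chosen after seeing the data, gave 2, 8 and 2 at 10 reads and 23, 34 and 21 at 1 read. Leaving out a library gave 0 to 1 in parental cells. The alpha sum (log2 ratio 1.47) was 2.31 in TPM and 2.43 by constant-reaching forms. The beta sum ranged from 0.95 to 2.17 on leaving out a library. The gamma sum (0.20) was 0.295 by library size alone, 0.40 in TPM and -0.061 by constant-reaching forms. On leaving out a library, log2 fold changes ranged from -0.13 to 2.14 (PCDHB12), -0.15 to 2.70 (PCDHB13), -0.91 to 0.092 (PCDHGC3, which also gave 0.07), -2.10 to 1.10 (PCDHGC4, which also gave -0.36), -1.08 to 0.68 (PCDHGA6, which also gave 0.25) and -0.17 to 0.24 (PCDHGA11, which also gave -0.08). PCDHB2 (2.32 to 4.89), PCDHB14 (2.99 to 4.73) and PCDHGA10 (1.18 to 2.46) kept their sign. With the replicate block PCDH9, PTK2 and CYFIP2 were also called lower, and PCDH17 (log2 fold change 0.92) and EYA1 (1.10) higher. EYA1 was also called higher without parental replicate 1 (1.05) and without parental replicate 2 (1.16). PCDHGC4 was -0.235 with limma voom and -0.094 with the replicate block. With the effective-length offset PCDHGC3 was -1.27 and PCDHGC4 was 1.33, both outside their leave-out ranges and neither called. Over protein-coding transcripts alone PCDHGC3 was -0.027. The cause of these moves was not tested. Of the remaining comparisons, 106 of the summary values counted as unchanged by rules of their own. For a count this meant equal or nearly so, in many cases 0 against 0. For a cluster sum it meant the same sign and a move smaller than the SD between replicates, which was 0.62 log2 units for beta. Of the single-gene values 84 kept their direction and side of the threshold.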
